A study of Mus musculus with 12 samples.

Results

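A group of 8 genes of the cholesterol pathway was followed in satellite cells, the stem cells that repair skeletal muscle: Srebf2, Hmgcs1, Idi1, Fdft1, Sqle, Cyp51, Msmo1 and Insig1. They were found by matching gene symbols to the Ensembl identifiers of the deposited count tables, and they make up 8 of the 55385 genes counted. The genes are SREBP2 itself, 6 enzymes of cholesterol synthesis and the sterol sensor INSIG1. They were chosen by name without a threshold on their values, but with earlier results of these data known. The counts of these genes called below are therefore not those of a set chosen blind to the data. All 8 had enough counts to be tested in every comparison.

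The satellite cells came from hindlimb muscle of C57BL/6J mice and were frozen in liquid nitrogen directly after isolation, without culture. There were 4 groups of 3 animals each: female Keap1 KO, female Keap1 Het, male Keap1 KO and male Keap1 Het. The Het animals carry the genotype that the labels write as heterogeneous, read here as heterozygous, so the animals set against KO were not wild type. The labels used here give neither the age of the animals nor the driver of the deletion nor the deleted part of Keap1. The stated aim of the study was to learn why KEAP1 and NRF2 act on the maintenance and activation of satellite cells differently in the sexes. Libraries are named below by genotype and animal number, for example KO240 for a male KO animal. The 12 libraries held 13042039 to 19273245 counts each.

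Cells make cholesterol from acetyl-CoA in a long series of enzyme steps, and SREBP2 is the transcription factor that turns most of these genes on together. When sterols are plentiful, the INSIG proteins hold SREBP2 and its escort SCAP in the endoplasmic reticulum. When sterols run low, SCAP carries SREBP2 to the Golgi, where proteases release its active part. KEAP1 marks the transcription factor NRF2 for degradation, so that loss of KEAP1 is known to raise NRF2 targets.

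As a check of the genotype labels, Nqo1, an NRF2 target, averaged 92.1 ± 15.2 CPM in female KO and 4.42 ± 1.15 CPM in female Het cells. It averaged 33.6 ± 2.79 CPM in male KO and 3.45 ± 1.22 CPM in male Het cells (SD, n = 3 in each group). CPM is the count of a gene relative to the scaled total of its library. Of 7 NRF2 reference genes, a list with Nqo1 and Keap1, 4 were called higher in female KO cells (edgeR adjusted p under 0.05). In male KO cells 2 were, Nqo1 and Me1, against 1.29% of all genes in females and 0.704% in males. Gclm went the other way in males, at 207 ± 88.4 CPM in KO and 312 ± 101 CPM in Het cells, and was not called. The counts of Keap1 itself did not check the labels, with 11.9 ± 0.969 CPM in female KO, 8.23 ± 1.22 in female Het, 7.25 ± 0.821 in male KO and 7.73 ± 2.25 in male Het cells. None of the 8 satellite cell markers was at 0, and their summed level was 7399 to 9387 CPM in female KO, 10800.2 to 12369 in female Het, 15803 to 17511 in male KO and 13825 to 16571 CPM in male Het libraries.

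Promoters of 6 of the 8 genes were found in RefSeq on GRCm38.p6, and Fdft1 and Sqle had no entry. That of Hmgcs1 is shown because it held the only match to the form of the sterol regulatory element searched for. In addition, none of its bases lay in an exon of the Ensembl annotation used for counting. The sequence is the 250 bases before the start that RefSeq gives, chr13:119690101-119690350, read 5′ to 3′ on the plus strand. The RefSeq start lies 28 bases upstream of the Ensembl start of Hmgcs1. For the other 5 genes it lies 49 to 214 bases downstream of the Ensembl start, so part of their windows lies in the gene's own Ensembl exons (214 of 250 bases for Msmo1 and 105 for Idi1). Capitals mark the NF-Y box (CCAAT, or ATTGG where it lies on the other strand) and the sterol regulatory element.
Hmgcs1: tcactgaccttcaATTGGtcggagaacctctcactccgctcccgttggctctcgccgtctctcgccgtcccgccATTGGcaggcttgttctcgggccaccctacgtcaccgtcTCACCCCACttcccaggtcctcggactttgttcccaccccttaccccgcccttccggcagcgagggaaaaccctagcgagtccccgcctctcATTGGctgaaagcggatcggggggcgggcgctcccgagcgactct
The windows searched were the 250 bases before and 50 bases after the RefSeq start, on both strands, and no matches of different motifs overlapped. The only form of the sterol regulatory element searched for was TCACNCCAC, where N is any base, so other forms would be missed. It lay in 1 of the 6 promoters, that of Hmgcs1, starting 137 bases before the RefSeq start, and in 1.24% of the 32851 promoters in the table. The NF-Y box CCAAT lay in all 6, with 3 matches in Msmo1, 2 in Idi1, 4 in Hmgcs1 and 1 each in Srebf2, Cyp51 and Insig1, and in 37.4% of all promoters. The GC box GGGCGG lay in all 6 and in 35.7% of all promoters. The core antioxidant response element TGACNNNGC, the motif that NRF2 is known to bind, lay in 0 of the 6 and in 12.4% of all promoters. These matches describe letters in a window and do not show binding.

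In males, mRNA of 3 of the 8 genes rose in KO cells, namely Fdft1, Msmo1 and Idi1, by 1.66-fold to 1.86-fold, and none fell. Among all 13361 genes tested in males 0.704% were called higher (94 genes) and 0.157% lower (21 genes). In 7 of the 8 genes every KO library lay above every Het library, a separation seen in 9.24% of all genes tested. The gene without it was Srebf2. The median log2 fold change of the 8 was 0.50, against 0.01 over all genes. On GRCm38, Fdft1 spans 63145150 to 63179578 on chromosome 14 (minus strand), Msmo1 64718139 to 64733792 on chromosome 8 (minus strand) and Idi1 8885501 to 8892451 on chromosome 13 (plus strand). Fragments over their exons were counted, except those that also lay on another gene. In bulk samples such as these, a change in the number of cells of a type and a change in RNA per cell cannot be told apart.

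The early part of the pathway runs to the isoprenoid units from which sterols are built. Hmgcs1, which makes the HMG-CoA that enters the pathway, had 98.6, 73.4 and 98.2 CPM in male KO libraries, against 53.7, 70.1 and 68.5 CPM in male Het libraries. The groups did not overlap, but KO247 lay only just above Het245. The log2 fold change was 0.50 ± 0.153 (SE), with an adjusted p of 0.197 (edgeR quasi-likelihood test, Benjamini-Hochberg over all genes). In the annotation 12.1% of the exonic bases of Hmgcs1 are shared with another gene model. Idi1, the isomerase that makes dimethylallyl diphosphate, had 72.5, 65.2 and 83.6 CPM in male KO libraries, against 38.3, 50.7 and 44.7 CPM in male Het libraries. Every KO library was well above the highest Het library, and Idi1 rose 1.66-fold (log2 0.73 ± 0.145, edgeR adjusted p = 0.0349). Of its exonic bases 9.22% are shared with another gene model.

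The next genes lead to squalene and its oxide. Fdft1, squalene synthase, the first enzyme committed to sterols, had 56.8, 47.1 and 66.2 CPM in male KO libraries, against 24.5, 34.8 and 32.4 CPM in male Het libraries. The groups were apart, and Fdft1 rose 1.86-fold (log2 0.89 ± 0.167, edgeR adjusted p = 0.0259). In the annotation 18.8% of the exonic bases of Fdft1 are shared with another gene, Ctsb, and fragments there were not counted. Sqle, squalene epoxidase, had 235, 208 and 208 CPM in male KO libraries, against 177.7, 176 and 165.5 CPM in male Het libraries. These were also apart, with a smaller log2 fold change of 0.33 ± 0.121 that missed the threshold (edgeR adjusted p = 0.281).

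Cyp51 and Msmo1 act after lanosterol and remove its extra methyl groups. Cyp51, the lanosterol demethylase, had 163, 150.5 and 177 CPM in male KO libraries, against 94.5, 128 and 123 CPM in male Het libraries. The groups were apart, with a log2 fold change of 0.51 ± 0.137 (edgeR adjusted p = 0.128). Msmo1, the methylsterol monooxygenase, had 245.1, 231 and 313 CPM in male KO libraries, against 128.5, 160.5 and 167 CPM in male Het libraries. KO255 was the highest and Het204 the lowest, the groups were far apart, and Msmo1 rose 1.73-fold (log2 0.79 ± 0.146, edgeR adjusted p = 0.0259).

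The regulators behaved unlike each other. Insig1, which retains SCAP in the endoplasmic reticulum and is itself an SREBP2 target, had 133, 119 and 167 CPM in male KO libraries, against 88.7, 110.2 and 109 CPM in male Het libraries. The groups were apart and the log2 fold change was 0.45 ± 0.146 (edgeR adjusted p = 0.217). Srebf2 had 227, 222 and 276 CPM in male KO libraries, against 244.8, 279 and 269 CPM in male Het libraries. The groups overlapped, and the log2 fold change was -0.13 ± 0.127 (edgeR adjusted p = 0.754).

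**Figure D1:**
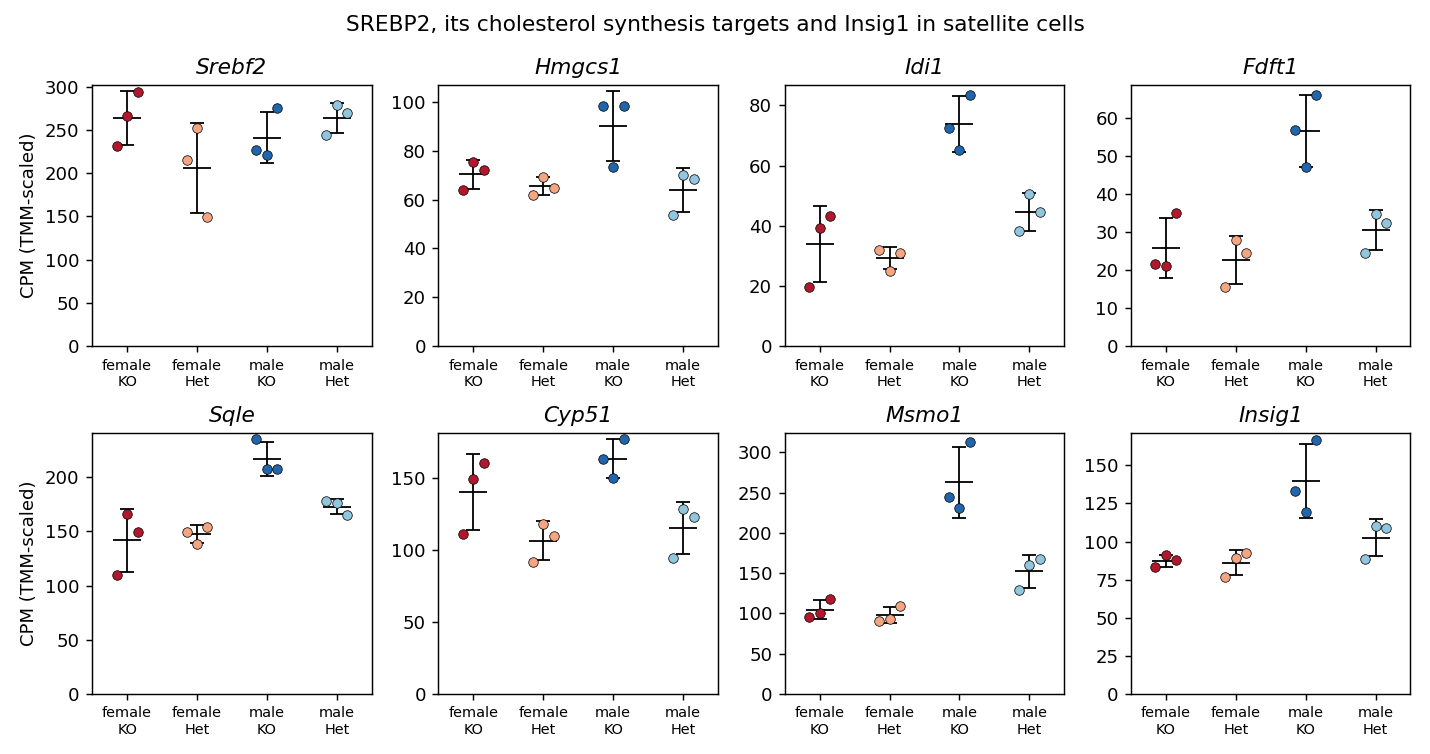
Level of each of the 8 genes in each library, in CPM, with 1 panel per gene, groups ordered as female KO, female Het, male KO and male Het, points for libraries and bars for the mean and SD of 3 animals. Male KO libraries lie above male Het libraries in every panel except that of Srebf2, and Msmo1 reached 231 to 313 CPM in male KO cells.

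The male calls depended on single libraries. None of the 8 genes was called without Het204, Het245, Het249 or KO240, while 3 were called without KO255 and 4 without KO247, which added Hmgcs1. The number of all genes called was 55 without Het204, 67 without Het245, 44 without Het249, 41 without KO240, 294 without KO255 and 229 without KO247. Without Het204 the adjusted p of Idi1 was 0.261, its highest over all alternatives, and that of Fdft1 was 0.184 and that of Msmo1 0.195, also their highest. In each of these fits the fold change was positive for 7 of the 8 genes, against 51.7% of all genes in the fit of all 6 libraries. The share of counts on mitochondrial rRNA was 0.226% to 0.407% in male KO and 0.409% to 0.601% in male Het libraries, groups that also did not overlap. The summed level of 4 tenocyte markers was 64.5 to 76.2 CPM in male KO and 80.1 to 96.6 CPM in male Het libraries. The 7 other marker lists overlapped between these groups, no marker was at 0 throughout a group, and the part of either measure in the result was not tested.

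In females none of the 8 genes passed the test, and no gene's libraries separated KO from Het, as 11.9% of all genes did upwards and 10.4% downwards. Among all 14036 genes tested in females 2.27% were called (319 genes), 1.29% higher and 0.983% lower. At an unadjusted p under 0.05, edgeR gave 1 of the 8 genes, Cyp51, against 17.9% of all genes, and DESeq2 and limma voom called 0 after adjustment. The fold change was positive for 7 of the 8 genes, against 50.5% of all genes, and its median was a log2 change of 0.15, against 0.00 over all genes.

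Cyp51 had 111, 149.6 and 161 CPM in female KO libraries, against 91.4, 118 and 110.1 CPM in female Het libraries. KO166 lay within the Het range, and the log2 fold change was 0.40 ± 0.165 (edgeR adjusted p = 0.23). Srebf2 had 232, 266 and 294 CPM in female KO libraries, against 215, 253 and 149.6 CPM in female Het libraries. Het181 was well below the other two Het libraries, and the log2 fold change of 0.36 ± 0.185 missed the threshold (edgeR adjusted p = 0.332).

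None of the 3 genes that rose in males passed the test in females. Msmo1 had 95.3, 99.8 and 118 CPM in female KO libraries, against 90.2, 93.5 and 109 CPM in female Het libraries. The groups overlapped, with a log2 fold change of 0.10 and a 95% interval of -0.21 to 0.40. Idi1 had 19.6, 39.2 and 43.2 CPM in female KO libraries, against 31.9, 25.1 and 30.8 CPM in female Het libraries. KO166 was the lowest of all 6 and the other 2 KO libraries the highest, and the interval of the log2 fold change of 0.21 was wide, from -0.33 to 0.76. Fdft1 had 21.6, 21.1 and 35.0 CPM in female KO libraries, against 15.5, 27.8 and 24.5 CPM in female Het libraries. Its libraries were mixed, with a log2 fold change of 0.19 and an interval of -0.35 to 0.73. The male estimate lay within the female interval for Idi1 (0.73) and above it for Msmo1 (0.79) and Fdft1 (0.89).

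Of the 3 remaining genes, none had an unadjusted p under 0.05 in females. Hmgcs1 had 63.8, 75.4 and 72.2 CPM in female KO libraries, against 62.0, 69.4 and 64.9 CPM in female Het libraries, a log2 fold change of 0.11 with an interval of -0.18 to 0.39. Sqle had 109.6, 166.02 and 149.5 CPM in female KO libraries, against 149.7, 138 and 154 CPM in female Het libraries, with KO166 the lowest and KO178 the highest of the 6. Its log2 fold change was -0.06, with an interval of -0.40 to 0.29. Insig1 had 83.4, 91.2 and 87.7 CPM in female KO libraries, against 76.7, 89.3 and 92.7 CPM in female Het libraries, a log2 fold change of 0.02 with an interval of -0.27 to 0.31. None of these genes had groups that stood apart. In the same libraries the summed satellite cell markers and the summed leukocyte markers were lower in KO cells without overlap (leukocytes 31.3 to 50.8 CPM in KO, 80.0 to 113 CPM in Het), and mitochondrial rRNA was 0.733% to 1.03% in KO and 0.302% to 0.507% in Het libraries. Sdc4 made up most of the satellite sum, at 4873 CPM in female KO and 7269 CPM in female Het cells on average. Of the 8 satellite markers 1 was called lower by edgeR, Cd34, against 0.983% of all genes, and 2 had a positive fold change. The part of these measures in the result was not tested.

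**Figure D2:**
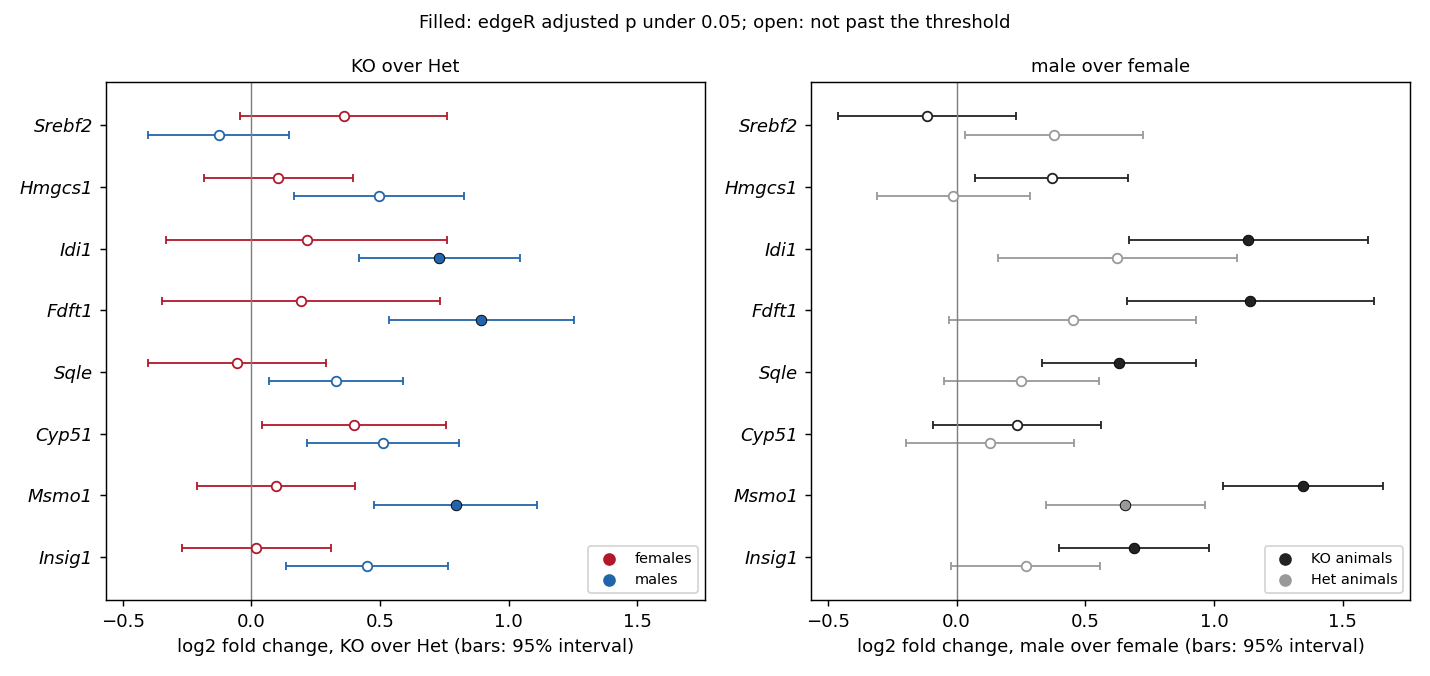
Log2 fold change of KO over Het for the 8 genes, fitted within each sex, with bars for the 95% interval and filled points for an edgeR adjusted p under 0.05. Fdft1, Idi1 and Msmo1 are filled in males, no gene is filled in females, and Srebf2 is the gene with a negative value in males.

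Whether the response differed between the sexes was tested directly, as the KO effect in females minus that in males in 1 fit of all 12 libraries. None of the 8 genes passed (edgeR), and 1 of all 14772 genes tested did (0.00677%). At an unadjusted p under 0.05 edgeR gave 4 of the 8, Msmo1, Fdft1, Insig1 and Srebf2, against 12.4% of all genes. DESeq2 called 1, Msmo1, with 243 called over all genes, and limma voom 0, with 1 called over all genes. The difference for Msmo1 was -0.69 ± 0.206 on the log2 scale, with an interval of -1.13 to -0.26 (edgeR adjusted p = 0.209). That for Fdft1 was -0.69, with a wider interval of -1.37 to -0.02 (edgeR adjusted p = 0.395). Srebf2 was the one gene of the 8 with a positive difference, a sign that 49.2% of all genes had, at 0.49 (edgeR adjusted p = 0.397). The calls in one sex and not in the other are therefore not a shown difference between the sexes.

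Averaged over the sexes in the same fit, Cyp51 and Msmo1 rose in KO cells. Of all genes, 2.15% were called higher in this contrast. Cyp51 changed by 0.46 ± 0.110 on the log2 scale (edgeR adjusted p = 0.0275), with estimates of 0.51 in males and 0.40 in females. Msmo1 changed by 0.44 ± 0.103 (edgeR adjusted p = 0.0214), with estimates of 0.79 in males and 0.10 in females. The fold change was positive for all 8 genes, against 49.4% of all genes, and the edgeR adjusted p of the 6 genes not called was 0.0759 (Fdft1) or more. The call of Cyp51 was lost on leaving out any of 7 libraries (Het164, KO178, KO188, Het204, Het249, KO240 and KO255) and that of Msmo1 on leaving out any of 3 (Het164, KO188 and Het204).

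Levels were also compared between the sexes within each genotype. In KO cells 5 of the 8 genes were higher in males, and none was lower, while 11.1% of all genes tested were called higher in males and 9.31% lower. Msmo1 averaged 263 ± 44.1 CPM in male KO and 104 ± 11.98 CPM in female KO cells, 2.54-fold higher in males (edgeR adjusted p = 1.7e-05). Fdft1 averaged 56.7 ± 9.55 CPM in male KO and 25.9 ± 7.89 CPM in female KO cells, 2.21-fold higher (edgeR adjusted p = 0.00231). Idi1 averaged 73.8 ± 9.27 CPM in male KO and 33.996 ± 12.6 CPM in female KO cells, 2.2-fold higher (edgeR adjusted p = 0.00198). Insig1 was 1.61-fold and Sqle 1.55-fold higher in males (edgeR adjusted p = 0.0023 and 0.0053). All 5 had every male library above every female library, as 18% of all genes did, and were called in all 16 alternatives. Hmgcs1, Cyp51 and Srebf2 did not pass (edgeR adjusted p = 0.0738, 0.308 and 0.664).

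In Het cells 1 of the 8 genes was called higher in males, against 5.44% of all genes, and none lower, against 4.72%. Msmo1 averaged 152 ± 20.8 CPM in male Het and 97.7 ± 10.2 CPM in female Het cells, 1.58-fold higher (edgeR adjusted p = 0.00904), a call lost without the male Het249 (edgeR adjusted p = 0.0552). Idi1 and Sqle also had all male Het libraries above all female Het libraries, as 14.4% of all genes did, with an edgeR adjusted p of 0.0814 for Idi1 and 0.287 for Sqle. Each sex has its own count table, so sex and any other difference between the tables cannot be told apart. The summed marker levels differed between the sexes as well. Satellite cell markers were higher in males, at 15803 to 17511 CPM in male KO and 7399 to 9387 CPM in female KO libraries. Of these 8 markers edgeR called 5 higher and 1 lower in male KO cells (11.1% and 9.31% of all genes). Endothelial, Schwann cell and tenocyte sums were also higher in male KO libraries without overlap. Fibro-adipogenic markers were lower, at 849 to 1396 CPM in male KO and 2653 to 3023 CPM in female KO libraries, as were pericyte markers. Leukocyte and myofibre sums overlapped, and the part of these markers was not tested.

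Ordered by mean level, male KO cells were the highest group for 7 of the 8 genes. For Idi1, Fdft1, Sqle, Msmo1 and Insig1 the next group was male Het, and male KO did not overlap it. For Hmgcs1 and Cyp51 the next was female KO, which overlapped male KO. Below male KO the neighbours overlapped for most genes, while male Het stood clear of the next group for Sqle and Msmo1. For Srebf2 the order was male Het at 264.2 CPM, female KO at 263.9, male KO at 241 and female Het at 206 CPM, with every neighbouring pair overlapping.

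Compared per length, as TPM, a unit that divides each count by the gene's exonic length, the genes were unequal in level. Srebf2 was the highest of the 8 in female Het cells at 96.7 TPM, followed by Insig1 at 93.9 TPM, and Fdft1 the lowest at 18.6 TPM. In male KO cells Insig1 was the highest at 139 TPM, Msmo1 followed at 132 TPM, and Fdft1 was again the lowest at 42.4 TPM. Msmo1 was at 53.4 TPM in female Het cells. The summed level of the 8 genes was 770, 671 and 887 TPM in male KO libraries, against 525, 623 and 552 TPM in male Het libraries, without overlap. In female KO libraries it was 540, 599 and 618 TPM, against 460, 567 and 500 TPM in female Het libraries, with overlap.

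The genes moved together across animals, Srebf2 and Sqle less than the rest. Of the 8 genes, 7, 7 and 8 lay above the median of their sex in male KO240, KO247 and KO255, against 0, 1 and 1 in male Het204, Het245 and Het249. In females 0, 7 and 6 did in KO166, KO178 and KO188, against 2, 5 and 4 in Het164, Het165 and Het181. KO166 was thus not above the female median for any of the 8 genes, unlike the other 2 female KO animals. The summed level of 6 myofibre markers was 97.7 to 537.9 CPM in female KO and 96.2 to 290.5 CPM in female Het libraries. Of these markers, Acta1 had 324 CPM in KO166, 75.4 in KO178 and 141 in KO188. Ckm, Myh1, Mylpf and Tnnt3 were highest in KO166 among the female libraries, at 43.0, 37.3, 40.8 and 86.5 CPM, as was Acta1. Myh4 was lower in KO166 (5.86 CPM) than in Het181 (8.70 CPM). The part of myofibre RNA in the levels of KO166 was not tested. Over the 12 libraries, after centring on each sex, Pearson's r of a gene with the mean of the 8 was 0.89 to 0.95 for 6 genes, 0.66 for Sqle and 0.24 for Srebf2. These values describe the genes, since each gene is part of the mean and the animals of a group share their genotype.

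**Figure D3:**
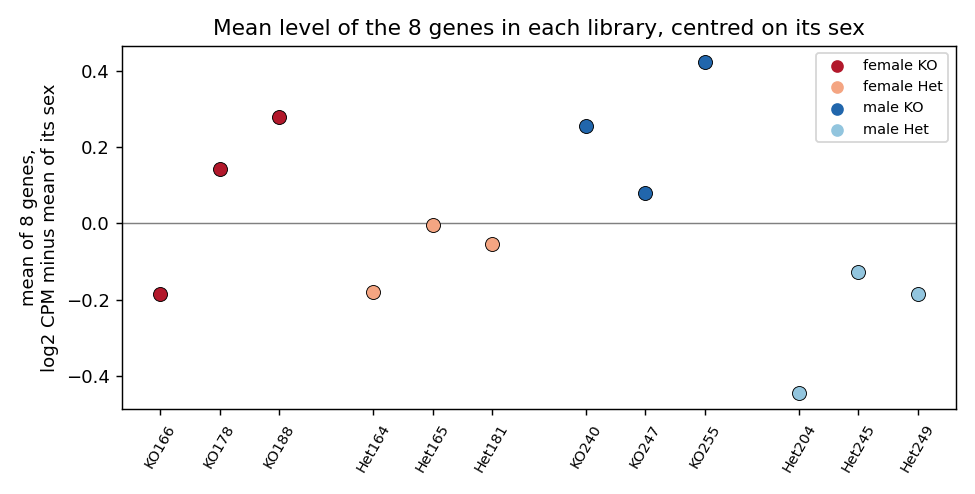
Mean over the 8 genes of the log2 CPM in each library, centred on the mean of its sex, with libraries grouped as female KO, female Het, male KO and male Het. Male KO libraries lie above 0 (0.08 to 0.42) and male Het libraries below it (-0.44 to -0.13), while in females KO166 lies at -0.18 beside Het164 at -0.18.

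The 5 other genes whose centred levels were most like this mean, of 8052 ranked, were Pex7, Uckl1, Selenop, Acsl3 and Gm14005. Pearson's r over the 12 libraries was 0.92 for Pex7, a receptor for peroxisomal import, and 0.92 for Uckl1, a uridine kinase-like protein. It was 0.90 for Selenop, a secreted selenoprotein, 0.90 for Acsl3, an acyl-CoA synthetase, and 0.89 for Gm14005. Spearman's rho was 0.77 to 0.94. Gm14005 had 31.9, 24.4 and 34.2 CPM in male KO libraries, against 13.9, 15.03 and 12.7 CPM in male Het libraries. It was called higher in male KO cells (edgeR adjusted p = 0.00634), as were 0.704% of all genes tested in males. The other 4 were not called in either sex. The 5 genes were picked in the same libraries by likeness to a mean that set male KO apart from male Het. The call of Gm14005 is therefore not independent of that choice.

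The rest of the synthesis pathway, 15 further enzymes, had no gene past the test in either sex. The median log2 fold change was 0.21 in males, with 11 positive, and 0.08 in females, with 8 positive. At an unadjusted p under 0.05, edgeR gave 4 in males, against 12.4% of all genes, and 1 in females, against 17.9%. After adjustment DESeq2 called 0 in males and 1 in females, Acat2, and limma voom called 0 in both. Over all genes DESeq2 called 264 in males and 707 in females. Pmvk, phosphomevalonate kinase, averaged 9.68 ± 0.782 CPM in male KO and 6.32 ± 1.14 CPM in male Het cells, apart but short of the threshold (edgeR adjusted p = 0.247). Acat2, which joins acetyl-CoA units at the start of the pathway, averaged 27.2 ± 3.07 CPM in female KO and 50.4 ± 22.8 CPM in female Het cells (edgeR adjusted p = 0.119).

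None of the 5 genes for SREBP processing and sensing passed the test in either sex with edgeR, which gave 1 in males and 3 in females at an unadjusted p under 0.05 (12.4% and 17.9% of all genes). DESeq2 called 1 of them, Insig2, in females, where it called 707 of all genes. Scap, the escort of SREBP, was apart in both sexes and in opposite directions, with 16.7 ± 1.61 CPM in male KO and 23.9 ± 2.60 CPM in male Het cells. In females it averaged 32.6 ± 1.85 CPM in KO and 23.4 ± 5.99 CPM in Het cells. The KO effect in females minus that in males was 0.99 on the log2 scale (edgeR adjusted p = 0.149), and 13.2% of the exonic bases of Scap are shared with another gene model. Insig2, the partner of Insig1, averaged 252 ± 12.1 CPM in female KO and 351 ± 45.7 CPM in female Het cells, without overlap (edgeR adjusted p = 0.11). In males it averaged 498 ± 30.7 CPM in KO and 448 ± 58.7 CPM in Het cells (edgeR adjusted p = 0.696). The difference in KO effect between the sexes was called by DESeq2 for Scap and Insig2, and by edgeR and limma voom for none of the 5 genes. Over all genes this difference was called for 243 by DESeq2 and for 1 by edgeR. Srebf1, which drives fatty acid synthesis more than cholesterol synthesis, averaged 100.3 ± 15.8 CPM in female KO and 69.3 ± 19.5 CPM in female Het cells (edgeR adjusted p = 0.193).

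Among the 7 genes for cholesterol uptake and other SREBP2 targets, 1 rose in females and none was called in males. At an unadjusted p under 0.05 edgeR gave 2 of the 7 in males, against 12.4% of all genes, and 4 in females, against 17.9%. After adjustment DESeq2 and limma voom called 0 in males and 1 in females, Lrp8, where they called 707 and 292 of all genes. Lrp8, a lipoprotein receptor better known for reelin signalling, had 5.91, 6.48 and 5.40 CPM in female KO libraries, against 2.69, 2.25 and 2.81 CPM in female Het libraries. It rose 2.3-fold (edgeR adjusted p = 0.0244), a call lost on leaving out any of 5 of the 6 female libraries (all but Het165).

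**Figure D4:**
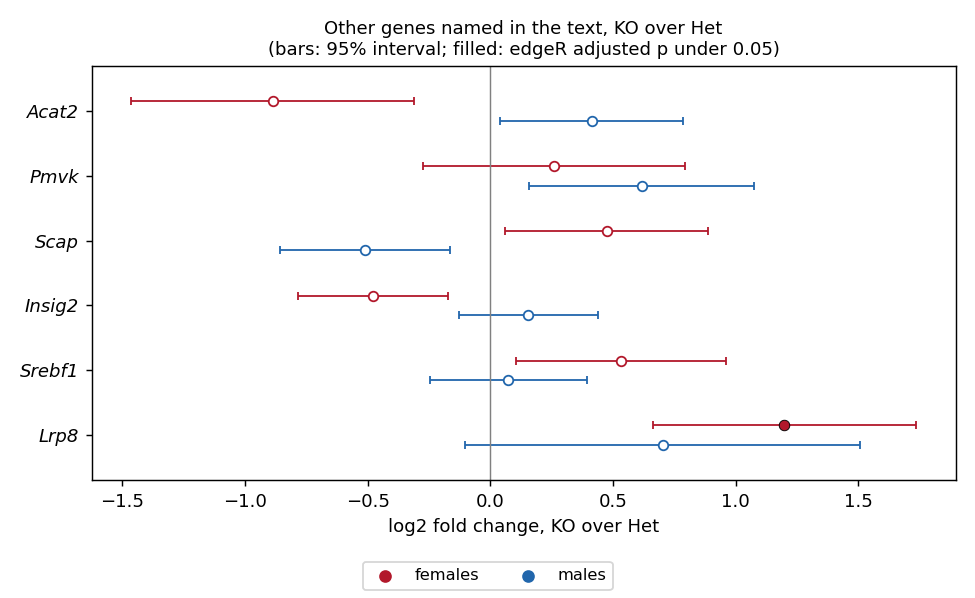
Log2 fold change of KO over Het, with bars for the 95% interval, for 6 genes outside the 8, the enzymes Acat2 and Pmvk, the SREBP processing genes Scap, Insig2 and Srebf1, and the receptor Lrp8, in females and males. Lrp8 in females is the one filled point (edgeR adjusted p under 0.05), and the estimates of Acat2, Scap and Insig2 lie on opposite sides of 0 in the sexes.

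Of the 10 genes for cholesterol efflux, storage and the sterol receptors LXR, none was called between KO and Het in either sex by edgeR, DESeq2 or limma voom. At an unadjusted p under 0.05 edgeR gave 0 in males and 1 in females (12.4% and 17.9% of all genes). The median log2 fold change was 0.11 in males and -0.08 in females. Between the sexes, 6 of the 10 were called higher in male KO than in female KO cells, against 11.1% of all genes, and 2 of the 10 higher in male Het than in female Het cells, against 5.44%. The limit that each sex has its own count table holds here too.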

How the data were processed

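RNA was measured in 12 libraries, with Smart-Seq2 cDNA and Tn5 libraries without molecular identifiers, per the labels. The deposited tables hold raw fragment counts per gene, made per the file headers with featureCounts 2.0.0 on Ensembl GRCm38 release 99, unstranded, without reads on several places or genes. They are not expected counts, per the file headers, so none was rounded. STAR, Subread, DESeq2 and mm10 are named in the submitters' processing notes.

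Counts were tested with edgeR 4.0.16 in R 4.3.3 (quasi-likelihood, TMM, minimum count 10), within each table and in 1 fit of 12 libraries, at a Benjamini-Hochberg adjusted p under 0.05. DESeq2 1.42.0, limma 3.58.1, other filters and scalings, and leaving out each library were alternatives, and the tests were checked on simulated data. There a planted log2 change of 1 was recovered for 58.8% of 97 changed genes in females and 62.6% of 99 in males. For the difference in KO effect between the sexes it was 29%, so a gene not called can still differ. A planted log2 change of 2 was recovered for 90.7% of 97 genes in females and 89.8% of 98 in males. False calls numbered 8 in females, 16 in males and 4 for the difference in KO effect. They numbered 7 on average over the sexes, and between the sexes 5 in Het and 12 in KO. A called gene can therefore also be unchanged. CPM used TMM factors over all libraries, TPM the deposited exonic lengths, and ± is the SD of 3 animals unless given as SE. Animals carry unique numbers, and replicates differed beyond counting noise. A floor of 3 counts was 0.144 to 0.231 CPM and covers counting error only. The tables held 0 columns of other samples.

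The genes, lists and tests were chosen with earlier results of these data known. Named were the 8 genes, Keap1, Nqo1, Srebf1, Scap and Insig2, and, from each list, genes past the threshold and up to 3 more with the smallest p. Promoters were matched by symbol in RefSeq. A few other genes that this rule names are not reported here, though list counts include them.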

Additional observations from a re-analysis of the deposited data

How the results depend on the processing

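Of the 8 genes, 3 were called in males and 0 to 4 on leaving out 1 library, and 1 (Msmo1) in 1 fit of all libraries. DESeq2 added Cyp51 in males. On average over the sexes 2 were called, 0 to 3 on leaving out 1 library, 3 with DESeq2 (Fdft1 added), 4 without the count filter and 0 at 1.5-fold or more. The interaction gave 0, and 1 with DESeq2. Among Het animals 1 was called between the sexes, 0 to 2 on leaving out 1 library and 2 without the count filter. Among KO animals 5 were, and 5 to 6 on leaving out 1 library. In females none was called under any alternative, and the scaling by RLE or the use of limma voom changed no call of the 8 genes.

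Over all genes, 319 were called in females (144 to 1479 on leaving out 1 library, 707 with DESeq2, 1000 without the count filter) and 115 in males (41 to 294, 264 and 375). On average 504 were called (318 to 931, 821 and 858, and 322 at 1.5-fold or more). The interaction called 1 gene (0 to 206, 243 and 358). Between the sexes 1501 genes were called in Het (668 to 1729) and 3016 in KO animals (2001 to 3312). The causes were not tested. No called value changed sign.

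No paired analysis was possible because the animal numbers are unique to each animal. With 3 animals a group, the female intervals are widest for Idi1 and Fdft1. Amplified reads without molecular identifiers are not independent molecules.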

Other observations

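The branch of the pathway that makes isoprenoids for ubiquinone, dolichol and protein prenylation was not called in either sex (0 of 6 genes by edgeR, DESeq2 and limma voom, with 1 in females and 0 in males at an unadjusted edgeR p under 0.05). Ggps1, geranylgeranyl diphosphate synthase, averaged 159 ± 6.02 CPM in male KO and 138 ± 8.19 CPM in male Het cells, without overlap (edgeR adjusted p = 0.527). In females it averaged 112 ± 4.64 CPM in KO and 135 ± 12.6 CPM in Het cells, again without overlap and in the opposite direction (edgeR adjusted p = 0.305). The difference between the sexes was -0.47 on the log2 scale (edgeR adjusted p = 0.267).

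Lysosomal cholesterol export was likewise not called between KO and Het (0 of 5 genes by edgeR, DESeq2 and limma voom, with 0 in females and 1 in males at an unadjusted edgeR p under 0.05). That gene was Npc2, which hands cholesterol to the lysosomal membrane. It averaged 122 ± 3.12 CPM in male KO and 89.6 ± 6.37 CPM in male Het cells, without overlap (edgeR adjusted p = 0.123), and 100.8 ± 5.25 CPM in female KO and 102 ± 2.48 CPM in female Het cells. The difference in its KO effect between the sexes was called by DESeq2 and not by edgeR (adjusted p = 0.254) or limma voom. Over all genes DESeq2 called 243 in this contrast and edgeR 1.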
